A study of Mus musculus with 18 samples.

Results

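The 6 genes described here are Ifit1, Ifit2, Ifit3, Oasl1, Oasl2 and Rsad2, antiviral effectors that cells make in answer to type I interferon. They were taken by name from 56953 gene identifiers and followed through all 18 libraries. The set was chosen by measured values: Oasl1, Ifit2, Ifit1 and Rsad2 had been called higher with clozapine than with vehicle in these microglia libraries in a model with the batch as a block. The levels of the members in that comparison are therefore a description, with no test.

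The study asked how 2 antipsychotic drugs change RNA in the cell types of the mouse frontal cortex. All mice were of the line B6;D2-Tg(S100B-EGFP)1Wjt/J, which carries a green fluorescent protein transgene under S100B sequence, so the controls carried it too. They received vehicle, or a dose of 10 mg/kg of clozapine, or 1 mg/kg of risperidone, injected intraperitoneally each day for 14 days. Injections ran from postnatal day 60 to 74 and the mice were killed on day 75. Cortices of 5 animals made 1 pool, and each treatment had 1 pool in batch 1 and 1 in batch 2, 6 pools in all. From each pool, cells bound to antibody-coated plates (immunopanning) gave 3 fractions in sequence: microglia on CD45 once endothelial cells had been removed, then, after removal of the oligodendrocyte lineage, neurons on Thy1 and astrocytes on HepaCAM. The labels name male mice in one place and both sexes in another. The word batch is the label's own, and what was shared within a batch is not stated.

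Type I interferon binds a receptor on the cell surface, and the kinases behind it activate transcription factors, among them STAT2, which joins IRF9 in a complex that binds a DNA element found before many antiviral genes. In the brain, microglia, the resident macrophages, are a known site of interferon-driven expression. IFIT1, IFIT2 and IFIT3 form complexes that bind foreign RNA or hold back its translation. OASL1 and OASL2 resemble the 2'-5' oligoadenylate synthetases that sense double-stranded RNA, and mouse OASL1 is known to limit translation of IRF7. RSAD2 (viperin) is a radical SAM enzyme that makes a chain-terminating nucleotide.

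In the GRCm39 coordinates of the count files, Ifit2 (ENSMUSG00000045932.13, chromosome 19, 34528094 to 34553819), Ifit3 (ENSMUSG00000074896.4, chromosome 19, 34560931 to 34566131) and Ifit1 (ENSMUSG00000034459.9, chromosome 19, 34618271 to 34627409) lie in a row on the plus strand. Oasl2 (ENSMUSG00000029561.18, chromosome 5, 115034997 to 115050295) and Oasl1 (ENSMUSG00000041827.16, chromosome 5, 115061299 to 115075974) are neighbours on the plus strand. Rsad2 (ENSMUSG00000020641.17, chromosome 12, 26492745 to 26506451) lies on the minus strand. All 6 are protein-coding. Oasl1 shares 38 bases with the antisense gene Gm13822, and the counting used no strand. Ifit3 has a near-identical copy, Ifit3b, so its counts are uncertain.

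The promoters of 4 members are shown because the genes moved together between libraries in the microglia fraction, a likeness that the choice of members favours. Their promoters also differ in the letters of the interferon element. Each is the 250 bases before a RefSeq start (build GRCm38.p6), 5′ to 3′ on the strand of the gene. Capitals mark matches to the letters GAAA-NN-GAAA (N is any base), a core of the interferon element, or TTTC-NN-TTTC on the other strand. The positions are chr19:34640639-34640888 (plus) for Ifit1, chr19:34583279-34583528 (plus) for Ifit3, chr12:26456453-26456702 (minus) for Rsad2 and chr5:114922990-114923239 (plus) for Oasl1.
Ifit1: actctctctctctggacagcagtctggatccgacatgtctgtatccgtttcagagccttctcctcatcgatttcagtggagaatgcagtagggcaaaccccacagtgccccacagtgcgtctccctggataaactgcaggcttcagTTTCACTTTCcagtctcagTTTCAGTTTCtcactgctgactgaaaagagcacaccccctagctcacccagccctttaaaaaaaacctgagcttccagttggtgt
Ifit3: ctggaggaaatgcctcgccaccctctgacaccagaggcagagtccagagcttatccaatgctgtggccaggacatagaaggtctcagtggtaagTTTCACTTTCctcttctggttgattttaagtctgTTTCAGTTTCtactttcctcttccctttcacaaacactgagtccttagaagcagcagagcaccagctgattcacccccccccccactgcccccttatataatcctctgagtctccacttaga
Rsad2: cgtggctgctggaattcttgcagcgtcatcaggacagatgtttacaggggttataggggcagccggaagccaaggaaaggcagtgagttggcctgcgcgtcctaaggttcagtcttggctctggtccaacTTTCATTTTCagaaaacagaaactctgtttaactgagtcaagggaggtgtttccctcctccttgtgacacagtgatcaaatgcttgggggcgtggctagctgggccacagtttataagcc
Oasl1: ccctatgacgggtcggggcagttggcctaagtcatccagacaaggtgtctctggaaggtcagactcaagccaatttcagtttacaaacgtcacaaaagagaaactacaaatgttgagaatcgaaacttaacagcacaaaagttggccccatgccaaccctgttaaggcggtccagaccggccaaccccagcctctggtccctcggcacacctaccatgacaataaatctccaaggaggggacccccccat
All 6 members had at least 1 RefSeq window of 300 bases, which runs from 250 before to 50 after the start. Ifit1 held TTTCACTTTC from base -104 and TTTCAGTTTC from base -85, counted from the start. Ifit3 held the same pair of 10-base matches, from -156 and -122. Rsad2 held TTTCATTTTC from -120. No match lay in the windows of Ifit2 (2 starts), Oasl1 or Oasl2. Of all 32851 windows of this length, 3.44% held a match and 0.225% held 2 or more. Among genes with any window, a match was found in 3 of the 6 members, 18 of 36 other antiviral effectors and 1079 of 27025 genes in all (3.99%). A match is a description of letters and not a site of binding.

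The libraries held 4714468 to 13391163 counts, and the levels below are CPM, counts scaled to a common library total, after TMM scaling. Summed over 20 microglia markers, the microglia fraction held 6880 to 13500 CPM and no other library more than 1800. Astrocyte markers (15) summed to 10700 to 25300 CPM in the astrocyte fraction, and neuron markers (15) to 8240 to 21200 CPM in the neuron fraction. Oligodendrocyte markers (15) reached 7260 to 46400 CPM in the astrocyte fraction and 7420 to 38100 in the neuron fraction, despite the depletion. In bulk samples, fewer cells of a type and less RNA per cell cannot be told apart. With 2 pools per group, p-values measure the spread between these pools.

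All 6 genes were read in every library, and the library with the highest level was for each of them a microglia library of batch 1. Per kilobase of exon, which allows genes to be compared, Oasl1 had the highest median level over the 6 microglia libraries, 52.8 CPM per kb. Ifit1 followed at 18.8, Ifit3 at 13.6, Rsad2 at 10.4, Ifit2 at 9.44 and Oasl2 at 1.16 CPM per kb. In the astrocyte fraction the median lay between 0.736 (Oasl2) and 3.45 CPM per kb (Ifit3), and in the neuron fraction between 0.254 (Oasl2) and 2.23 (Ifit2). The range over the 6 microglia libraries was 32.0-fold for Ifit1, 11.8-fold for Ifit2, 10.7-fold for Oasl1, 10.5-fold for Rsad2, 6.67-fold for Ifit3 and 3.03-fold for Oasl2.

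**Figure D1:**
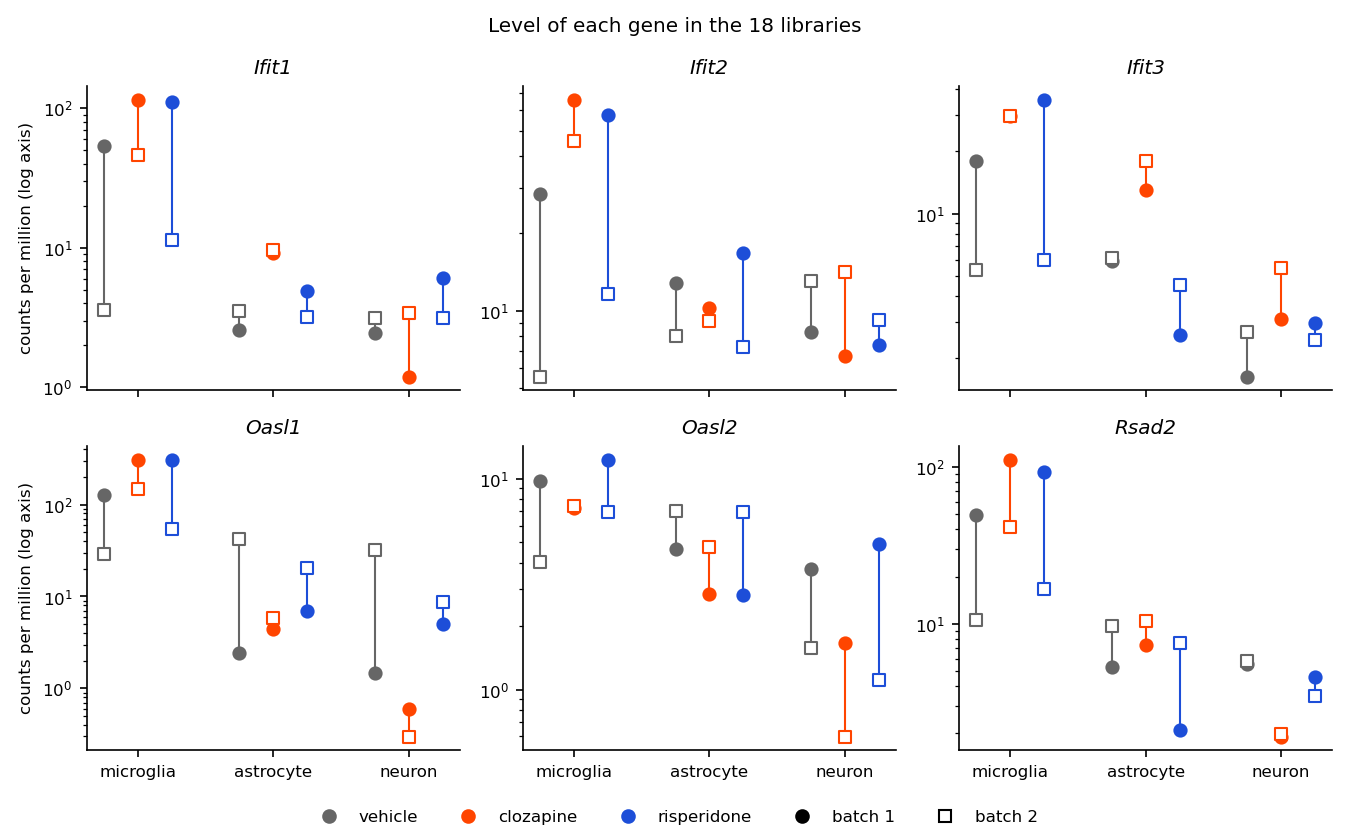
Level of each gene in CPM (log axis) in the 18 libraries, by fraction and treatment; filled circles are batch 1, open squares batch 2, and a line joins the 2 pools of a group. In the microglia fraction the batch 1 libraries lie above those of batch 2 for Ifit1, from 53.9 to 115 against 3.59 to 46.2 CPM.

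Ifit1 in the microglia fraction stood at 53.9 CPM (vehicle), 115 (clozapine) and 111 (risperidone) in batch 1. In batch 2 the same treatments gave 3.59, 46.2 and 11.3 CPM. Each batch 2 library was below every batch 1 library.

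Rsad2 read 49.2, 111 and 92.5 CPM with vehicle, clozapine and risperidone in batch 1, and 10.5, 41.3 and 16.7 in batch 2. Again the batches did not overlap, as for 6.96% of genes in this direction. Oasl1 read 126, 306 and 304 CPM in batch 1 and 28.6, 149 and 54.0 in batch 2. Its batch 2 clozapine library was above the batch 1 vehicle library, so the batches overlapped.

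Ifit2 read 28.5, 65.8 and 57.5 CPM in batch 1 and 5.56, 45.7 and 11.6 in batch 2. Ifit3 read 18.0, 29.6 and 35.5 CPM in batch 1 and 5.33, 29.8 and 5.97 in batch 2. For both, the batch 2 clozapine library lay within the batch 1 range, and for Ifit3 the clozapine pools were level. Oasl2 read 9.79, 7.29 and 12.3 CPM in batch 1 and 4.05, 7.44 and 6.93 in batch 2, the narrowest spread of the 6.

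Between batches in the microglia fraction, with treatment in the model (3 libraries against 3), 5 of the 6 members were called lower in batch 2 by edgeR's quasi-likelihood test at a Benjamini-Hochberg adjusted p under 0.05. Of all 29229 genes tested, 1.59% were called lower and 3.20% higher. The median log2 difference was -1.85 over the members and -0.05 over all genes. This is another contrast than the one that chose members, but it uses the same 6 libraries and the same terms, treatment and batch. Choosing genes called in such a model favours genes with a small error, and that error enters here too. The number of members called is therefore a description and is not read against the share of all genes. Ifit1 fell by 2.80 on the log2 scale (SE 0.34, edgeR adjusted p = 9.06e-05), lower in 3 of 3 treatments, as were 16% of all genes. Rsad2 fell by 2.10 (SE 0.23, edgeR adjusted p = 6.27e-05) and Oasl1 by 1.96 (SE 0.24, edgeR adjusted p = 9.07e-05), each lower in 3 of 3 treatments. Ifit2 fell by 1.75 (SE 0.29, edgeR adjusted p = 0.000969) in 3 of 3. Ifit3 fell by 1.45 (SE 0.35, edgeR adjusted p = 0.0177) in 2 of 3. The difference of Oasl2 was -0.75 (SE 0.33, edgeR adjusted p = 0.245).

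The calls of Ifit1, Oasl1 and Rsad2 held without any 1 library, with DESeq2 and without the treatment term. Ifit3 was not called without either risperidone library (edgeR adjusted p = 0.182 and 0.197) or with DESeq2 (adjusted p = 0.151), and neither Ifit2 nor Ifit3 was called without the treatment term (edgeR adjusted p = 0.0994 and 0.184).

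The rest of the interferon pathway was read in the same fit. Among ligands, Ifnb1, which encodes interferon beta, stood at 74.0, 97.3 and 114 CPM with vehicle, clozapine and risperidone in batch 1 and at 9.62, 61.0 and 17.9 in batch 2. It fell by 2.14 (SE 0.31, edgeR adjusted p = 0.000345), the 1 called of 4 ligands tested. No interferon receptor was called of 6 tested, with differences from -0.62 to 0.22. Of 15 signalling and regulator genes, 1 was called: Irf8, a macrophage transcription factor, fell by 0.75 (SE 0.20, edgeR adjusted p = 0.0288). Stat2 (-0.04, SE 0.22) and Irf9 (-0.32, SE 0.23), named after their values were seen because they belong to the complex described above, were not called (edgeR adjusted p = 0.963 and 0.568).

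Of 15 nucleic acid sensors and adaptors, 2 were called, both lower. Ifih1, which encodes the double-stranded RNA sensor MDA5, fell by 1.68 (SE 0.23, edgeR adjusted p = 0.000192), and Tlr3, an endosomal sensor of such RNA, by 0.88 (SE 0.23, edgeR adjusted p = 0.0273). Of 47 other antiviral effectors tested, 5 were called lower and none higher, with a median of -0.47. The 3 with the smallest p are named. Isg15, a ubiquitin-like modifier, fell by 2.02 (SE 0.30, edgeR adjusted p = 0.000391). Cxcl10, a chemokine, fell by 1.33 (SE 0.25, edgeR adjusted p = 0.00271) and Ddx60, a helicase, by 1.67 (SE 0.32, edgeR adjusted p = 0.00306). Of the copies and neighbours, Ifit3b (-0.88), Ifit1bl1 (0.31), Ifit1bl2 (0.42) and Cmpk2 (0.63), which lies beside Rsad2, none was called.

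**Figure D2:**
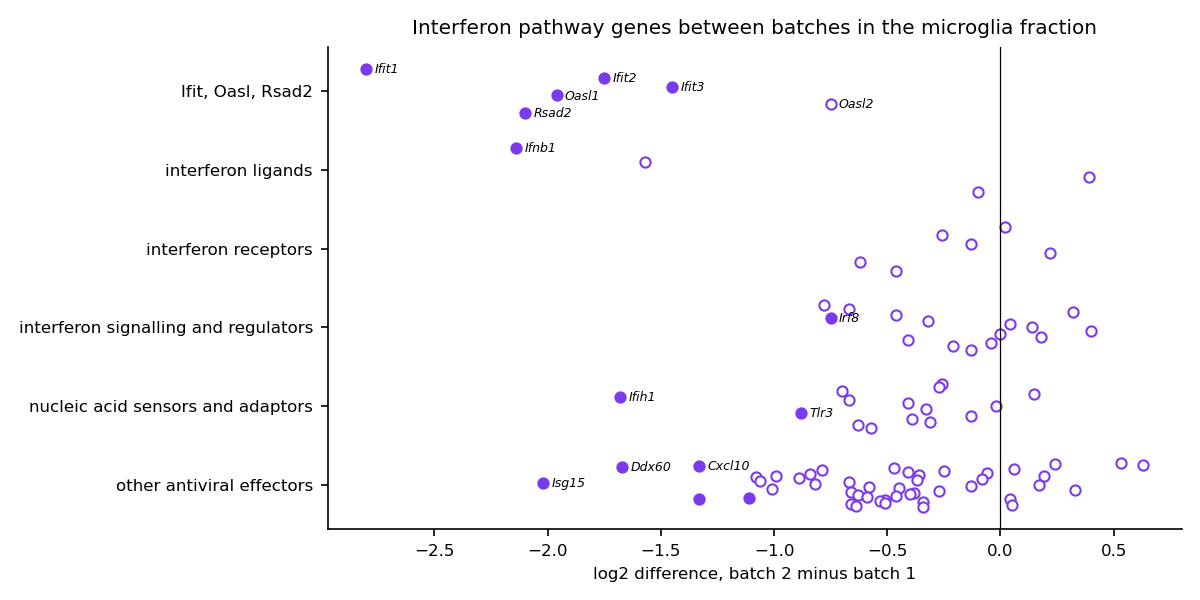
Log2 difference between batch 2 and batch 1 in the microglia fraction for the 6 genes and 5 pathway lists, 1 point per gene; filled points have an edgeR adjusted p under 0.05, and the members and up to 3 filled points of each list with the smallest p carry their symbol. Ifit1 (-2.80), Ifnb1 (-2.14) and Rsad2 (-2.10) lie farthest to the left, while no interferon receptor is filled.

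Other genes also moved with batch in these libraries. All 5 red blood cell markers were called lower in batch 2 (summed level 5050 to 14200 CPM in batch 1 and 1090 to 4960 in batch 2), as were 5 of 8 border macrophage markers (114 to 424 against 41.0 to 105 CPM) and 12 of 15 astrocyte markers (2980 to 4970 against 1650 to 3090 CPM). Of 15 neuron markers, 12 were called higher, and their sum in batch 2 (2890 to 7890 CPM) was above that in batch 1 (1610 to 2410 CPM). None of 20 microglia markers was called, with 20 of 20 lower and a median of -0.45. Of 15 genes that respond to tissue dissociation, 14 were lower, with a median of -0.35. Their sum was 5080 to 9760 CPM in batch 1 and 3400 to 4520 in batch 2. Of these, 2 were called lower, the heat shock genes Hspa1a (-2.62) and Hspa1b (-2.73). In every library of both batches each of these lists had all its genes above 0. The part of these genes in the members' difference was not tested.

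In the astrocyte fraction 1 member was called between batches, in the opposite direction. Oasl1 read 2.40, 4.42 and 6.91 CPM with vehicle, clozapine and risperidone in batch 1 and 42.3, 5.87 and 20.5 in batch 2. It rose by 2.11 (SE 0.47, edgeR adjusted p = 0.0142), higher in 3 of 3 treatments and the only one called (1.70% of 26622 genes were called higher by edgeR). The call was lost with DESeq2 (adjusted p = 0.154), without either vehicle library (edgeR differences 1.10 and 1.13) and without the batch 2 risperidone library (edgeR adjusted p = 0.155). The differences of the others ran from -0.55 (Ifit2) to 1.15 (Rsad2, edgeR adjusted p = 0.0895). Without either clozapine library Rsad2 was called as well, at 1.46. Of the pathway lists, 4 of 15 regulators, 4 of 15 sensors and adaptors and 1 of 41 other effectors tested were called higher and none lower. In this fraction 9 of 15 dissociation response genes were called higher in batch 2, with summed levels of 1300 to 1600 CPM in batch 1 and 2150 to 3330 in batch 2, and their part was not tested.

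In the neuron fraction no member was called between batches (0.178% of 21938 genes were called), and 1 of the 6, Oasl2, had an unadjusted p under 0.05, as 25% of genes did. DESeq2 called 1292 genes and none of the members, and 1 had an unadjusted p under 0.05, against 22.2% of genes. The differences ran from -1.69 (Oasl2, SE 0.61) to 1.77 (Oasl1, SE 0.82). Without the batch 2 clozapine library Oasl1 was called, at 2.42 (edgeR adjusted p = 0.0121).

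**Figure D3:**
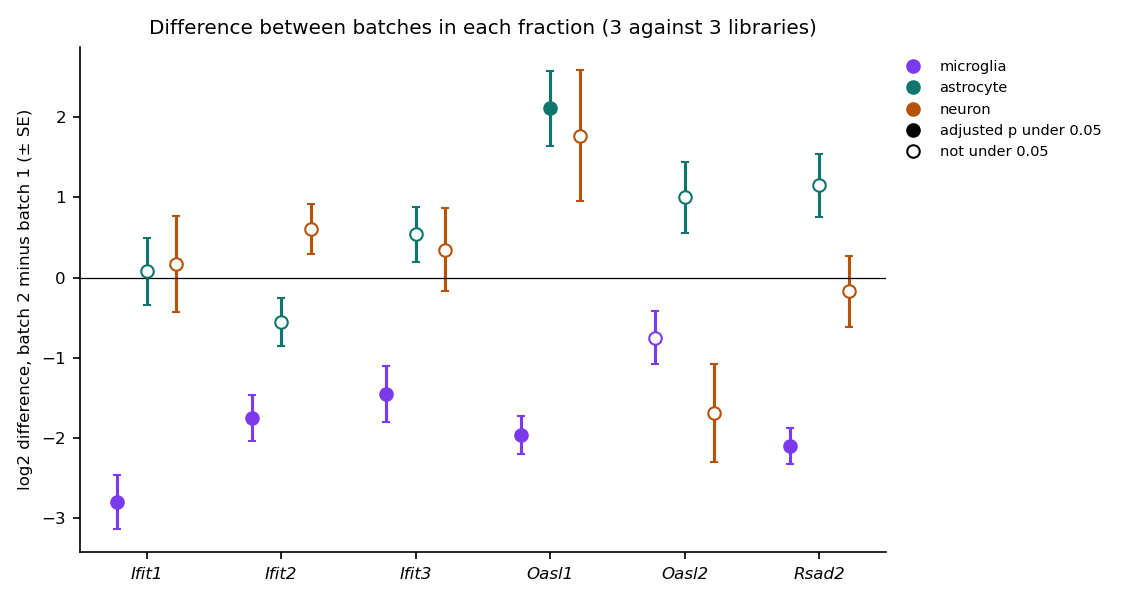
Log2 difference between batch 2 and batch 1 with its standard error, by gene and fraction, from 3 libraries against 3 with treatment in the model; filled points have an edgeR adjusted p under 0.05. The 5 filled microglia points lie between -2.80 and -1.45, and the 1 filled astrocyte point, Oasl1, at 2.11.

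A fit over all 18 libraries with the pool as a block tested whether the batch difference itself differed between fractions. The microglia libraries that took part in choosing members enter the comparisons with microglia. Counts of members called there are therefore a description and are not read against the share of all genes. Between microglia and astrocytes the batch difference differed for 3 members, in a comparison that called 9.30% of 28667 genes in either direction. The batch difference was lower in microglia by 2.54 for Ifit1 (log2, SE 0.66, edgeR adjusted p = 0.0198), by 2.95 for Rsad2 (SE 0.68, edgeR adjusted p = 0.0102) and by 1.75 for Ifit3 (SE 0.54, edgeR adjusted p = 0.0467). For Oasl1 it was lower by 3.44 with a wider error (SE 1.17, edgeR adjusted p = 0.0689). Between microglia and neurons no member passed (0.321% of genes called), and the smallest edgeR adjusted p was 0.0827, for Ifit2. Between astrocytes and neurons Oasl2 passed, with a difference of 2.52 (SE 0.64, edgeR adjusted p = 0.0185, 17.5% of genes called).

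Over the 6 pools, with the pool as a block, 5 members were called higher in the microglia than in the astrocyte fraction, where 9.82% of 28667 genes were. Oasl1 read 161 ± 120 CPM (SD, n = 6) in microglia, 13.7 ± 15.4 in astrocytes and 8.06 ± 12.3 in neurons. It was higher in microglia than in astrocytes by 4.59 (log2, SE 0.80, edgeR adjusted p = 0.000219), in 5 of 6 pools. Ifit1 read 56.8 ± 47.6 CPM (SD, n = 6), 5.50 ± 3.13 and 3.22 ± 1.61 in the 3 fractions, and Rsad2 53.5 ± 40.4, 7.04 ± 3.02 and 3.88 ± 1.71. Both were higher in microglia than in astrocytes in 6 of 6 pools, as were 11.5% of genes, Ifit1 by 3.08 (SE 0.52, edgeR adjusted p = 0.000161) and Rsad2 by 2.75 (SE 0.52, edgeR adjusted p = 5e-04). For Rsad2 every microglia library was above every astrocyte library, at 10.5 CPM or more against 10.4 or less, as for 7.43% of genes.

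Ifit2 was higher by 1.61 (SE 0.39, edgeR adjusted p = 0.00511) and Ifit3 by 1.30 (SE 0.37, edgeR adjusted p = 0.0148), each in 5 of 6 pools. Oasl2 differed by 0.65 (SE 0.41, edgeR adjusted p = 0.361). The clozapine and vehicle libraries of the microglia fraction both took part in choosing members. Without the clozapine pools, with vehicle still in the fit, Ifit1 (3.14), Oasl1 (3.78) and Rsad2 (2.58) were called, and Ifit2 (1.06, edgeR adjusted p = 0.236) and Ifit3 (1.53, edgeR adjusted p = 0.105) were not. Ifit3 also lost its call without vehicle pool 1, clozapine pool 1 or risperidone pool 1 (edgeR adjusted p from 0.0641 to 0.0763).

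Against the neuron fraction all 6 were called higher in microglia, where 30.3% of genes were. The differences were 5.75 for Oasl1 (SE 0.86), 3.76 for Ifit1 (SE 0.55), 3.71 for Rsad2 (SE 0.54), 2.69 for Ifit3 (SE 0.39), 2.03 for Oasl2 (SE 0.43) and 1.67 for Ifit2 (SE 0.41), with edgeR adjusted p from 2.23e-05 to 0.00244. Without the clozapine pools, 5 were called and Ifit2 was not (0.99, edgeR adjusted p = 0.149). Ifit2 was the member with the smallest difference, at 10.7 ± 3.54 CPM (SD, n = 6) in astrocytes and 9.77 ± 3.05 in neurons.

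Between astrocytes and neurons, Ifit3 (1.39, SE 0.39, edgeR adjusted p = 0.0153) and Oasl2 (1.38, SE 0.44, edgeR adjusted p = 0.0287) were called higher in astrocytes, each in 5 of 6 pools, where 15.1% of genes were. Neither was called without the clozapine pools (0.95 and 1.12) or without clozapine pool 2 (1.30 and 1.14). Ifit3 also lost its call without clozapine pool 1 (1.25), and Oasl2 without vehicle pool 2 (1.13) or risperidone pool 2 (1.10).

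The pathway around the members was also read higher in microglia than in astrocytes: 5 of 6 interferon receptors, 8 of 15 regulators, 10 of 15 sensors and adaptors and 20 of 47 other effectors were called higher. Ifnb1 differed by 5.62 (SE 0.87, edgeR adjusted p = 5.83e-05), Irf8 by 3.57 (SE 0.33) and Slfn8, a Schlafen family gene, by 4.26 (SE 0.41). Tlr3 was the 1 gene of these lists called lower in microglia, by 0.98 (SE 0.19, edgeR adjusted p = 0.000632).

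The level of each member in the astrocyte and neuron libraries was also set against the microglia library of the same pool, beside the microglia markers. In the astrocyte library the summed microglia markers stood at 4.69 to 21.9 percent of the same pool's microglia library (median 13.6), and in the neuron library at 1.63 to 26.1 percent (median 5.38). Ifit2 and Oasl2 were above the marker sum in 6 of 6 pools in both fractions, with medians of 37.1 and 55.6 percent in astrocytes and 30.0 and 30.6 percent in neurons. Oasl1 was above it in 2 of 6 pools in each fraction, with medians of 3.10 and 1.40 percent. Ifit1 and Rsad2 were above it in 4 of 6 pools in astrocytes and 5 of 6 in neurons.

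Vehicle pool 2 stood apart. Its astrocyte and neuron libraries held 1510 and 1800 CPM of summed microglia markers, the highest outside the microglia fraction. Oasl1 stood at 42.3 CPM in its astrocyte and 32.3 in its neuron library, 148 and 113 percent of its microglia library (28.6 CPM), against a marker sum of 21.9 and 26.1 percent. Ifnb1 there read 4.07 and 5.83 CPM and Cxcl10 47.7 and 42.0 CPM, also the highest of each fraction. The part of microglia RNA in these values was not tested.

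**Figure D4:**
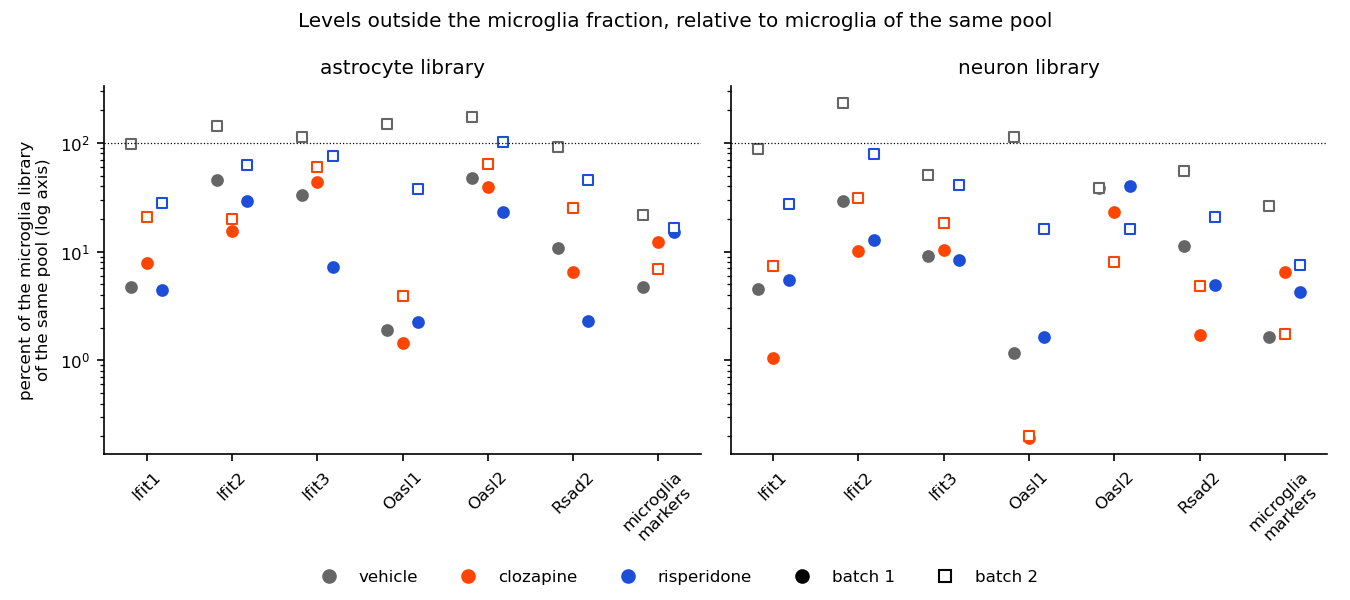
Level of each gene in the astrocyte and neuron library as a percent of the microglia library of the same pool (log axis), beside the sum of 20 microglia markers; the dotted line is 100 percent, filled circles are batch 1 and open squares batch 2. Oasl1 ranges from 1.45 to 148 percent in astrocytes and from 0.195 to 113 percent in neurons, and the highest point in each is vehicle pool 2.

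With clozapine in the microglia fraction, Ifit1, Ifit2, Ifit3, Oasl1 and Rsad2 were above vehicle within both batches, and Oasl2 in batch 2 alone. The log2 ratios were larger in batch 2 than in batch 1 for each of them: 3.69 against 1.09 for Ifit1, 3.04 against 1.21 for Ifit2, 2.48 against 0.72 for Ifit3, 2.38 against 1.28 for Oasl1 and 1.97 against 1.17 for Rsad2. For Oasl2 they were 0.88 and -0.43. Over both batches the difference was 1.33 for Ifit3 (SE 0.70) and 0.07 for Oasl2 (SE 0.49). Leaving out each library in turn gave 0.57 to 4.50 for Ifit1, 0.95 to 3.33 for Ifit2, 0.70 to 2.48 for Ifit3, 0.83 to 3.01 for Oasl1, -0.44 to 0.86 for Oasl2 and 0.40 to 2.87 for Rsad2. The highest values came without the batch 1 vehicle library, when both clozapine libraries were set against vehicle of batch 2 alone. The lowest came without the batch 2 vehicle library or, for Rsad2, without the batch 1 clozapine library. This contrast chose 4 of the members, so no test is given. No gene of 32846 was called (0%) without the replicate block, and 1040 had an unadjusted p under 0.05 (DESeq2 called 1 gene). Across all genes 25.6% were higher with clozapine in both batches.

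In the clozapine libraries Ifnb1 read 97.3 and 61.0 CPM, against 74.0 and 9.62 with vehicle, and Cxcl10 read 336 and 291 CPM, against 322 and 95.3. The groups overlapped for both, and no gene of their lists was called by edgeR (0 of 7 ligands and 0 of 48 other effectors). Border macrophage markers had a median difference of -0.74, with 8 of 8 lower, dissociation response genes of -0.53, with 15 of 15 lower, and microglia markers of -0.23, with 19 of 20 lower. Astrocyte markers had a median of 0.59, with 14 of 15 higher, oligodendrocyte markers of 0.56, with 13 of 15 higher, and neuron markers of 0.48, with 13 of 15 higher. None of these was called by edgeR, and their part was not tested.

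Risperidone shares its vehicle libraries with that contrast, so values that took part in choosing members enter here too, and the counts are a description. In the microglia fraction the members read 0.60 (Oasl2) to 1.35 (Oasl1) above vehicle on the log2 scale, all 6 higher within both batches. Among all genes 24.3% were, and nothing is read from the comparison with that share. None was called (edgeR adjusted p = 0.929 for each, and DESeq2 called none), none had an unadjusted p under 0.05 (4.28% of genes had), and 0% of genes were called. The within-batch ratios were 1.04 and 1.66 for Ifit1, 1.27 and 0.92 for Oasl1 and 0.91 and 0.67 for Rsad2, in batch 1 and batch 2. Without the batch 1 risperidone library the differences of 5 members turned negative, to -1.28 for Ifit1, -0.49 for Ifit2, -0.90 for Ifit3, -0.46 for Oasl1 and -0.78 for Rsad2, since a batch 2 library was then set against vehicle of both batches. With the replicate block the differences were 0.64 to 1.32 with no call (edgeR adjusted p from 0.335 to 0.693). In that fit 4 members had an unadjusted p under 0.05, against 8.24% of genes. The set was chosen from a fit with this block and these vehicle libraries, so nothing is read from that share either. Border macrophage markers had a median difference of -1.33, with 8 of 8 lower, microglia markers of -0.29, with 20 of 20 lower, red blood cell markers of -0.97, with 5 of 5 lower, neuron markers of -0.57, with 14 of 15 lower, and dissociation response genes of -0.49, with 14 of 15 lower. None was called by edgeR, and their part was not tested.

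Between the drugs in microglia, clozapine read above risperidone within both batches for Ifit1, Ifit2, Oasl1 and Rsad2, with differences of 0.19 to 0.54 (SE 0.72 to 1.01). Across all genes 36.9% were higher with clozapine in both batches, and 0% were called. The drugs were given at different doses, and the members took part in the choice, so the values are set side by side with no test.

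In the astrocyte fraction, Ifit1 read 9.13 and 9.68 CPM with clozapine and 2.56 and 3.52 with vehicle in batches 1 and 2. Ifit3 read 13.0 and 18.0 CPM against 5.93 and 6.10. For both, each clozapine library was above each vehicle library, as for 18.5% of the 31022 genes tested. The differences were 1.52 (SE 0.54) for Ifit1 and 1.27 (SE 0.48) for Ifit3, with an edgeR adjusted p of 1 for each. No gene was called (0%), and 3 members, these and Oasl1 (-2.25, SE 0.96), had an unadjusted p under 0.05, against 1.25% of genes (DESeq2 called no gene, with 3 members and 1.34% of genes at an unadjusted p under 0.05). Neuron markers in this fraction had a median difference of 0.61, with 15 of 15 higher, and microglia markers of -0.38, with 16 of 20 lower; none was called, and their part was not tested. The lower Oasl1 rests on vehicle pool 2: without that library the difference was 1.05. Without a low-count filter Oasl1 was called (edgeR adjusted p = 0.00615).

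Ifit3 with risperidone read 2.58 and 4.50 CPM in astrocytes, below both vehicle libraries, as for 9.75% of genes, and below both clozapine libraries, as for 12.2%. The difference between clozapine and risperidone was 2.05 (SE 0.49, edgeR adjusted p = 1). It was the 1 member with an unadjusted p under 0.05 (0.00152), against 1.06% of genes, and neither edgeR nor DESeq2 called any gene (0%). Between these groups neuron markers were 15 of 15 higher (median 0.79), microglia markers 20 of 20 lower (-0.47) and astrocyte markers 15 of 15 lower (-0.37), none called, and their part was not tested. Risperidone against vehicle gave -0.78 (SE 0.49) for Ifit3 and between -0.74 and 0.37 for the others, with no call by edgeR (0% of genes) or DESeq2 and no unadjusted p under 0.05 (0.645% of genes). The copy Ifit3b read 11.6 and 11.2 CPM with clozapine, 7.53 and 2.44 with vehicle and 6.56 and 3.63 with risperidone.

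In the neuron fraction, Oasl1 read 1.46 and 32.3 CPM with vehicle (9 and 288 counts), 0.595 and 0.299 with clozapine (5 and 3 counts) and 5.03 and 8.67 with risperidone (34 and 78 counts). Both clozapine libraries were below all others, as in 15.5% of 25510 genes for clozapine against vehicle. The exact Poisson 95% intervals, for counting error only, were 0.193 to 1.39 and 0.0617 to 0.874 CPM with clozapine and 0.669 to 2.78 CPM for the batch 1 vehicle library, so in batch 1 the intervals overlapped. The difference from vehicle was -5.25 (SE 1.18, edgeR adjusted p = 1, unadjusted p = 0.000906), and edgeR called no gene (0%). An unadjusted p under 0.05 was held by 2 members, Oasl1 and Rsad2, against 2.81% of genes. DESeq2 called it (adjusted p = 0.00581), as did edgeR without the low-count filter (adjusted p = 2.33e-11) and without the batch 1 vehicle library (-6.19, adjusted p = 5.46e-12). Without the batch 2 vehicle library it was -1.66 (edgeR adjusted p = 0.996). The clozapine libraries of this fraction held 586 and 158 CPM of summed microglia markers, the vehicle libraries 220 and 1800 and the risperidone libraries 329 and 560, and their part was not tested.

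Rsad2 in neurons read 1.91 and 1.99 CPM with clozapine, 5.53 and 5.83 with vehicle and 4.59 and 3.45 with risperidone. The clozapine pair was below both other groups. Against risperidone, Oasl1 (-3.94, SE 1.16, edgeR adjusted p = 1) and Rsad2 (-1.07, SE 0.61) were the 2 members whose clozapine libraries lay below, as for 14.1% of genes. Oasl1 had an unadjusted p of 0.00577 there, against 3.26% of genes under 0.05, and no gene was called by edgeR (0%) or DESeq2. Oasl1 was called there without a low-count filter, and 1 member was called without the batch 1 vehicle library. The difference of Rsad2 from vehicle was -1.55 (SE 0.61, edgeR adjusted p = 1, unadjusted p = 0.0262). Ifit3 read 3.10 and 5.48 CPM with clozapine, above both vehicle libraries (1.63 and 2.69) as 13.7% of genes were, with a difference of 0.96 (SE 0.71, edgeR adjusted p = 1). Risperidone against vehicle in neurons gave -1.32 (Oasl1, SE 0.92) to 0.73 (Ifit1, SE 0.75), with no member called by edgeR (0% of genes) or DESeq2 and no unadjusted p under 0.05 (0.8% of genes). Oasl1 was called lower without the batch 1 vehicle library (-2.26, edgeR adjusted p = 0.0258) and read 2.24 without the batch 2 vehicle library.

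**Figure D5:**
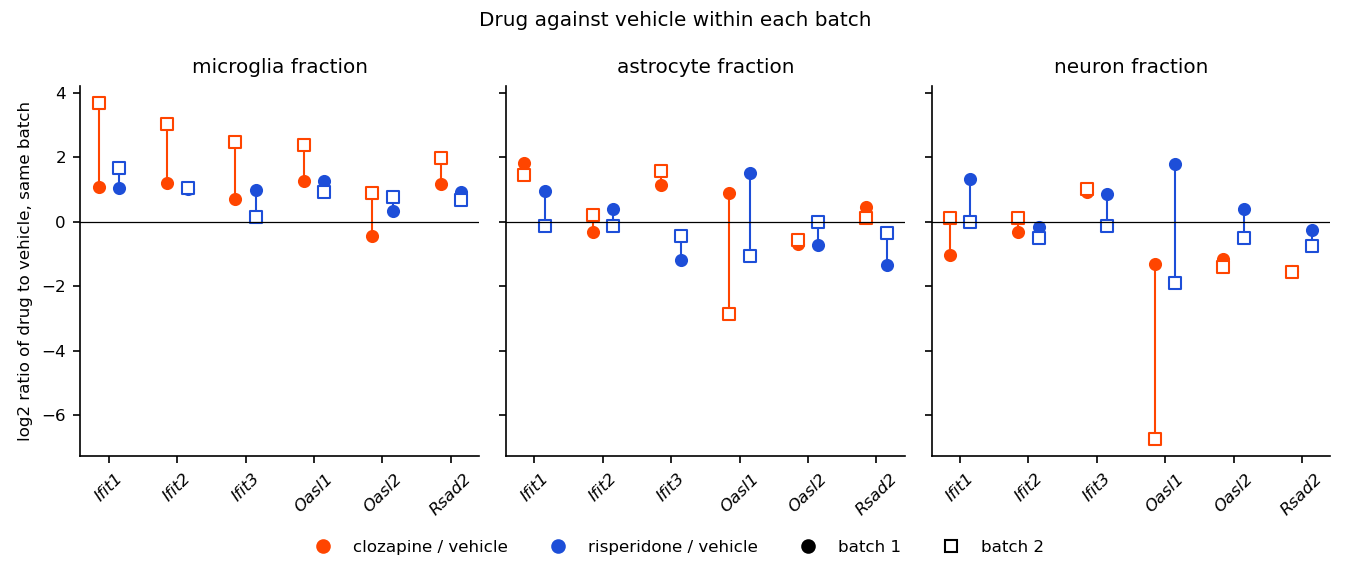
Log2 ratio of drug to vehicle within batch 1 (filled circles) and batch 2 (open squares) for each gene, in 3 fractions; a line joins the 2 batches. In microglia every clozapine ratio is above 0 apart from Oasl2 in batch 1 (-0.43), and in neurons Oasl1 reaches -6.75 in batch 2.

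Whether the drug differences differed between astrocytes and neurons was tested over all 18 libraries. This fit had a term for each group and no pool block, so the pairing of fractions within a pool was not used. None of the 28667 genes passed for either drug (0% called), and no member had an unadjusted p under 0.05 (DESeq2 was not run on this term). The clozapine difference was higher in astrocytes by 3.01 for Oasl1 (SE 1.88) and 1.82 for Ifit1 (SE 1.45).

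Ordered by mean level, the 3 microglia groups came first for Ifit1, Ifit2, Oasl1, Oasl2 and Rsad2, with overlapping libraries between neighbours among them. For Ifit1 the astrocyte clozapine group had rank 4, at 9.41 ± 0.391 CPM (SD, n = 2), and the next group was neurons with risperidone at 4.59 ± 2.09. For Ifit3 the astrocyte clozapine group, at 15.5 ± 3.57 CPM, had rank 3, above microglia with vehicle at 11.7 ± 8.96, with overlapping libraries. Neurons with clozapine were lowest for Ifit1 (2.29 ± 1.55), Oasl1 (0.447 ± 0.210), Oasl2 (1.13 ± 0.756) and Rsad2 (1.95 ± 0.0623). For Rsad2 these libraries did not overlap the group above, neurons with risperidone, as for 14.1% of genes. Ifit2 had the flattest order outside microglia, from 8.31 ± 1.29 to 12.0 ± 6.71 CPM, with each neighbour overlapping.

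The members followed each other closely in microglia. Over the 6 microglia libraries, the correlation (Pearson) of each member's log2 CPM with the mean of the other 5 was 0.95 to 0.99, apart from Oasl2 at 0.78. Over all 18 libraries with the fraction's mean removed, it was 0.90 for Rsad2, 0.82 for Ifit1, 0.66 for Ifit2, 0.56 for Ifit3, 0.51 for Oasl1 and 0.39 for Oasl2. These are descriptions: the points share fractions, pools and batches. Oasl1, Ifit2, Ifit1 and Rsad2 were also chosen for a rise with clozapine in these microglia libraries. That choice favours a high correlation among members there, so its height is not read as a result.

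The genes most like the members' mean over the 18 libraries, among 28667, were Isg15 (r = 0.959), Tiparp (0.957), Ifih1 (0.945), Armcx6 (0.939) and P2rx7 (0.939). With the mean of each fraction removed they were Ifih1 (0.850), Armcx6 (0.844), Isg15 (0.841), Zfp94 (0.840) and Tiparp (0.837). Isg15, Tiparp, Ifih1 and Armcx6 were on both lists. Stat2 (0.108) and Irf9 (0.211), named after their values were seen, had lower values on the second scale, and Ifnb1 had 0.760.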

How the data were processed

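Paired-end RNA-seq libraries (Illumina NextSeq, made from 20 ng of ribosome-depleted total RNA with random and oligo-dT primers, per the labels' protocols) were deposited as 18 tables of gene counts. Per the file headers, the authors counted with featureCounts 2.0.8 over exons by gene identifier, with reads allowed to count for overlapping genes, no strand setting and no option to count multi-mapping reads. The headers show paired mode without the option that counts read pairs, so each mate may count and counting intervals are then too narrow. GRCm39 and FastQC come from the submitters' processing notes, and an aligner's name was not given in the sources used here. The 37 mitochondrial identifiers hold 0 counts. Symbols were matched by identifier to GENCODE M21 for 52029 of 56953 identifiers (96.2% of counts).

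Counts as deposited were fitted with edgeR 4.0.16 (R 4.3.3; quasi-likelihood test, TMM scaling, filterByExpr, Benjamini-Hochberg over all genes tested, threshold 0.05), and SE is the log2 difference divided by the root of F. Drugs were compared within a fraction over its 6 libraries without a block, fractions over all 18 with the pool as a block, and batches within a fraction with treatment as a term. CPM use TMM; log2 CPM for likeness use a prior count of 2. Alternatives were DESeq2 1.42.0, RLE scaling, no low-count filter, the replicate block or its removal, no treatment term, all 18 libraries in 1 fit, and leaving out each library or pool, or both clozapine pools. The tests of differences between fractions in batch or drug effects were added after the data were seen. Those of batch effects had the pool as a block, and those of drug effects had group terms and no block. The scripts were tested on simulated data.

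The replicate number is the batch in the labels, so numbers pair samples; deviations of same-batch libraries correlated at 0.15 to 0.53. Fractions of a pool come from the same animals. The members and gene lists were chosen with earlier results of these data known. Named are the 6 members, their copies and neighbours, the 5 genes most like them on each of 2 scales, and in each list at most 4 called genes with the smallest p, or 2 where none was called. A combined table of the same counts was not used. Some genes of the lists are not reported here by name.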

Additional observations from a re-analysis of the deposited data

Results flagged for a closer look

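The batch difference of 4 members was not the same in different fractions, by the test of that difference over all 18 libraries with the pool as a block (edgeR, adjusted over 28667 genes). The microglia libraries took part in choosing members, so the calls that involve microglia are a description. For Ifit1 the difference between batches was -2.54 in microglia relative to astrocytes (log2, adjusted p = 0.0198), and leaving out each pool gave -3.13 to -2.05, with the call lost without either vehicle or either risperidone pool (adjusted p from 0.0527 to 0.0889). For Rsad2 it was -2.95 (adjusted p = 0.0102), with -3.53 to -2.50 when each pool was left out and the call lost without vehicle pool 2 (0.0506) or risperidone pool 1 (0.0739). For Ifit3 it was -1.75 (adjusted p = 0.0467), with -2.39 to -1.13 and the call lost without either vehicle or either risperidone pool (0.0682 to 0.21). For Oasl2 the batch difference in astrocytes relative to neurons was 2.52 (adjusted p = 0.0185), with 1.98 to 2.75 and the call lost without vehicle pool 1 (0.0517) or either risperidone pool (0.116 and 0.0859). In neurons Oasl2 read 3.74, 1.67 and 4.88 CPM in batch 1 and 1.57, 0.598 and 1.11 in batch 2, from 33 counts at most.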

How the results depend on the processing

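For clozapine against risperidone, the differences of single members were not followed through the alternatives, in any fraction. In the other comparisons, apart from clozapine against vehicle in microglia, members kept their direction and their side of the threshold in most alternatives. The exceptions follow, and their cause was not tested. Totals were taken over all settings except those that leave out a single library or pool. In them 324 differences of single members counted as unchanged, 6 gained a call, 9 lost one and 3 reversed. The setting without the clozapine pools is included. It gave lost calls of Ifit2 and Ifit3 (microglia against astrocytes), Ifit2 (microglia against neurons) and Ifit3 and Oasl2 (astrocytes against neurons). In the last comparison it also gave the reversals of Ifit1 and Ifit2. For clozapine against vehicle in microglia, unchanged meant only a shift smaller than the SD between pools of a treatment. Direction and call were not checked there. Genes called in place of 0: with the replicate block (the batch pairs the libraries) 5 for clozapine and 2 between drugs in microglia, 4, 4 and 10 in astrocytes for clozapine, risperidone and between drugs, and 1 and 1 in neurons for clozapine and risperidone. Where members were tested, the block changed no member's call. In microglia no member test is given for clozapine against vehicle, from whose blocked fit the set was chosen, or for clozapine against risperidone. DESeq2 called 1 and 1 in microglia (clozapine, between drugs), 20 (1 member, Oasl1) and 7 in neurons (clozapine, risperidone), 11755 between astrocytes and neurons against 7635, 0 members between batches in astrocytes and 1292 genes between batches in neurons against 39. Without a low-count filter the counts were 14, 10 and 24 in microglia (clozapine, risperidone, between drugs), 52 (1 member), 4 and 38 in astrocytes, 171 (1 member), 47 and 61 (1 member) in neurons, 4 members between astrocytes and neurons, and 1862 genes (1 member) between batches in neurons. All 18 libraries in 1 fit called 1 gene for risperidone in neurons. Without the clozapine pools 2878 genes (3 members) differed between microglia and astrocytes, 8170 between microglia and neurons and 974 (0 members) between astrocytes and neurons, where Ifit1 and Ifit2 read -0.07 each. Without the treatment term 931 genes (3 members) differed between batches in microglia and 320 in neurons, where Ifit1 read -0.10.

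Leaving out each library gave 0 to 1, 0 to 1 and 0 to 4 genes in microglia (clozapine, risperidone, between drugs), 0 to 1 and 0 to 3 in astrocytes (risperidone, between drugs) and 0 to 266, 0 to 145 and 0 to 58 in neurons (0 to 1 member each). Between astrocytes and neurons it gave 3049 to 12881 genes (0 to 2 members), and between batches 506 to 1381 in microglia, 79 to 4984 (0 to 2 members) in astrocytes and 0 to 3119 (0 to 1 member) in neurons. Outside clozapine against risperidone, differences that changed sign ranged as follows. For clozapine in microglia: Oasl2 -0.44 to 0.86. For risperidone in microglia: Ifit1 -1.28 to 4.17, Ifit2 -0.49 to 2.72, Ifit3 -0.90 to 2.04, Oasl1 -0.46 to 2.74 and Rsad2 -0.78 to 2.46. For clozapine in astrocytes: Ifit2 -0.44 to 0.19, Oasl1 -3.13 to 1.05 and Rsad2 -0.22 to 0.70. For risperidone in astrocytes: Ifit2 -0.47 to 0.62, Oasl1 -1.80 to 2.52, Oasl2 -1.13 to 0.28 and Rsad2 -1.90 to 0.05. For clozapine in neurons: Ifit1 -1.27 to 0.27 and Ifit2 -0.73 to 0.39. For risperidone in neurons: Ifit2 -0.67 to 0.03, Ifit3 -0.02 to 0.75, Oasl1 -2.26 to 2.24 and Oasl2 -1.21 to 0.90. Between astrocytes and neurons Ifit2 ranged from -0.26 to 0.26, between batches in astrocytes Ifit1 from -0.19 to 0.29, and between batches in neurons Ifit1 from -0.37 to 0.91 and Rsad2 from -0.27 to 0.07. With 2 pools per group, a lone library left in an arm is assumed to vary like the other groups. In neurons the clozapine libraries held 5 and 3 counts of Oasl1, which limits its fold change.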
